A study of Mus musculus with 8 samples.

Results

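Dense chains are stretches of the genome in which many accessible regions lie close together away from gene ends. They were built from a table of 128057 accessible regions by leaving out the 17960 regions within 1 kb of either annotated end of a protein-coding gene and joining the remaining 110097 wherever neighbours on a chromosome were at most 5 kb apart. This gave 58699 distal chains, of which the 273 with 10 or more regions are described here. They hold 3316 regions, which is 2.59% of all regions and 3.01% of the distal ones. The rule used positions alone and no count. A chain carries the name of the protein-coding gene that most of its regions lie in, or of the nearest one, which says nothing about the gene it acts on.

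The regions come from ATAC-seq, an assay in which the transposase Tn5 cuts and tags DNA that is not packed away, so that the count of a region measures its accessibility. The cells were intratumoral type 1 conventional dendritic cells (cDC1s) sorted from tumours of B16-OVA, a melanoma line carrying ovalbumin, and all host mice were wild type. Tumours were taken 21 days after inoculation for 4 libraries and 7 days after inoculation for the other 4, and the comparison asks how cDC1 chromatin in late tumours differs from that in early ones. Whether the 4 libraries of a day stem from different animals is not in the labels. The spread behind each p value is that between these libraries and may be technical.

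Total counts in regions ran from 14021151 to 27737040 in the day 21 libraries and from 9440223 to 16063736 in the day 7 libraries. Levels are CPM, the count of a region or chain relative to the scaled total of its library, and fold changes are log2 values of day 21 over day 7 with their standard error. Of 10 cDC1 markers, 9 had a region at a gene end, and Itgae had none. Their summed level was 372 to 393 CPM at day 21 and 354 to 391 CPM at day 7. Markers of T and NK cells summed to 127 to 142 CPM at day 21 and to 137 to 156 CPM at day 7 over 21 genes. Of these, 15 had a lower mean at day 21, 4 a higher one, and Lck and Ncr1 had no region. Macrophage and monocyte markers summed to 180 to 209 CPM at day 21 and to 174 to 185 CPM at day 7 over 20 genes, of which Siglec1, Cd163 and Marco had no region. In such bulk data a smaller number of cells of a type and less accessibility per cell cannot be told apart.

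Enhancers are stretches of DNA outside promoters where transcription factors bind and from which they act on genes at a distance. Genes that fix the identity of a cell, or that answer strongly to signals, often lie beside clusters of many enhancers. Clusters with an exceptional load of cofactors or active histone marks are called super-enhancers, and in dendritic cells they have been described near lineage factors such as Irf8. Here no histone mark or cofactor was measured, so the data show only that accessible regions are crowded. Crowding and accessibility picked out different chains in part. Of the 273 distal chains with the highest summed CPM, 93 were dense (34.1%). Ranked by CPM among all 58699 distal chains, the median dense chain stood at rank 503 and the weakest at rank 12481. They are called dense chains here for that reason.

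Dense chains spanned 12.1 to 60.0 kb with a median of 26.0 kb, and held 10 to 27 regions with a median of 11. Regions covered 10.9% to 30.2% of a span (median 18.7%), so most of the DNA in a chain lay outside called regions. Counts were spread over several regions. The strongest region held 11.6% to 65.4% of a chain's counts (median 25.3%) and more than 50% in 5 chains. The mean summed level ran from 13.8 to 447 CPM, with a median of 95.0. Regions lay inside a protein-coding gene in 194 chains, with all of a chain's regions inside the same gene in 144, and the other 79 chains had none in a gene. Chains were found on 20 chromosomes, the autosomes and X, with most (25) on chromosome 2, and a further chain lay on an unplaced contig. They carried the names of 259 genes, 11 of which name more than 1 chain. Around the limit of the rule, 102 chains had exactly 10 regions and a median of 78.4 CPM, while 141 chains had 9 regions and a median of 62.9 CPM.

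Although the rule removed the ends of protein-coding genes, other starts of transcription lie inside the chains. RefSeq (GRCm38.p6, the same assembly as mm10) lists promoter windows of 300 bases, 250 before to 50 after a start. Of these, 75 windows of 62 genes overlapped regions of 58 chains, which makes 67 distinct regions since some windows share one. Of these 67 regions, 14 were higher at day 21 and 9 lower, beside 9.5% and 9.86% of all regions tested. The following 6 are shown because they are the points where a dense chain and a start of transcription coincide at a region whose accessibility differed between the days. They are the protein-coding genes with the smallest p in each direction and an overlap of at least 150 bases, chosen after the values were seen. Each is printed 5′ to 3′ on the strand of the gene. Capitals mark the letters GAAANNGAA, a pattern bound by interferon regulatory factors (IRF).
Dock10, chr1:80665303-80665602, minus strand: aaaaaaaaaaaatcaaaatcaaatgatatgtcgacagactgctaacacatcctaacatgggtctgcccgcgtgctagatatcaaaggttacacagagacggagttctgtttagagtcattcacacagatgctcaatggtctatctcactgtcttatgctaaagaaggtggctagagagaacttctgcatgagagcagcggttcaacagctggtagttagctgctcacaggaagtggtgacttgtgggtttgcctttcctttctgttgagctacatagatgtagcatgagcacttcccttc
P2ry14, chr3:59130713-59131012, minus strand: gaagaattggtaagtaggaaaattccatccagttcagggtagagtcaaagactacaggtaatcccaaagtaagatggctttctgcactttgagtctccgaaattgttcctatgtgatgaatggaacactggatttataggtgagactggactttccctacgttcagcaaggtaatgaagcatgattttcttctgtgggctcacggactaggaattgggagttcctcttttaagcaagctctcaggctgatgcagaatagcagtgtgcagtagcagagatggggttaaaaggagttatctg
Pstpip1, chr9:56089726-56090025, plus strand: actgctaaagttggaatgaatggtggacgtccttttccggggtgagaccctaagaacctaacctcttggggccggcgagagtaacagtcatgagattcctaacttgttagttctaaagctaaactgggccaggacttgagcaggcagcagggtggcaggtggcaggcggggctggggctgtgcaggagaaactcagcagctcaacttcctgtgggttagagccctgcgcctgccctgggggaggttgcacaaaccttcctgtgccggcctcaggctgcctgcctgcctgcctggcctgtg
Zfp217, chr2:170131171-170131470, minus strand: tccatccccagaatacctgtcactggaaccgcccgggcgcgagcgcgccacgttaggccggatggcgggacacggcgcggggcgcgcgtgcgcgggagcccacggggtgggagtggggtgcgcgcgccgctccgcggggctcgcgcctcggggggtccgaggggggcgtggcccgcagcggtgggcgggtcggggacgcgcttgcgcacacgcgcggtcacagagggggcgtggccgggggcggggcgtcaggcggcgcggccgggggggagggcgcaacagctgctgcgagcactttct
Stat4, chr1:52007990-52008289, plus strand: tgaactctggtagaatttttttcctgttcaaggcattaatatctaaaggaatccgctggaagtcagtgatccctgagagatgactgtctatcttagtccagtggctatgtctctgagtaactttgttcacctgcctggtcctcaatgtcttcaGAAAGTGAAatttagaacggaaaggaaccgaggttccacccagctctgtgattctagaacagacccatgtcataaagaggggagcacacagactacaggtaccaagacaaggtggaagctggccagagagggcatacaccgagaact
Cbfa2t3, chr8:122678126-122678425, minus strand: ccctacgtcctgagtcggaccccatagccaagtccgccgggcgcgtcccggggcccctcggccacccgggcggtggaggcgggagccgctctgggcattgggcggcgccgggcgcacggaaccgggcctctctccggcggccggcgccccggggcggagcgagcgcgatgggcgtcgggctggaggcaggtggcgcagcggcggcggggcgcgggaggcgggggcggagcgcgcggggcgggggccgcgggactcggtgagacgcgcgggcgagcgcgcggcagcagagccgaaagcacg

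The starts printed above are not the annotated ends of their genes, which the rule left out. The region over the printed Dock10 start, inside the gene, had a mean of 28.3 CPM at day 21 and 20.9 CPM at day 7 (n = 4 each), a log2 change of 0.43 ± 0.09. At the annotated ends of Dock10 the level was 23.2 CPM at day 21 and 27.3 CPM at day 7, and no region there was called. Dock10 encodes an activator of small GTPases of the cytoskeleton. The regions over the starts of P2ry14, a receptor for nucleotide sugars, and Pstpip1, an adaptor of the actin cytoskeleton, changed by 0.32 ± 0.09 and 0.47 ± 0.15. At Zfp217, a zinc finger protein, the region had 26.7 ± 1.15 CPM at day 21 and 42.4 ± 3.54 CPM at day 7 (mean ± SD; −0.67 ± 0.08). The region over the Stat4 start had 5.42 ± 1.64 CPM at day 21 and 12.2 ± 1.37 CPM at day 7 (−1.16 ± 0.16), and the one over Cbfa2t3, a corepressor of transcription, changed by −0.51 ± 0.11. Motif letters were searched on both strands. The IRF pattern GAAANNGAA was found in 12 of the 75 windows (16%) and in 8.56% of all 32851 promoter windows. The AP-1 pattern TGANTCA stood in 8 (10.7%, against 7.81% of all windows), the PU.1 pattern GAGGAAGT in 5 (6.67%, against 3.20%) and the NF-kB pattern GGGANNTTC in 3 (4.00%, against 3.94%). Matches of different patterns may overlap, and a match describes letters and not binding. Windows of the same gene can overlap and may share a match, as at Rapgef2, where overlapping windows hold 1 IRF match each. The shares were not tested against those of all windows.

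More dense chains gained accessibility by day 21 than lost it, and each chain changed by less than 2-fold. Of 273 chains, 114 were higher at day 21, 33 were lower and 126 did not pass (edgeR quasi-likelihood test on summed counts, Benjamini-Hochberg adjusted p under 0.05). The same fit held 73543 units, made of distal chains of every size and of each gene-end region by itself, and 11.1% of these units were higher and 12.3% lower. The dense chains thus stood at 41.8% higher, against 11.1% over all units, and at 12.1% lower, against 12.3%. Their median log2 change was 0.12, with quartiles of −0.03 and 0.25, against a median of −0.01 over all units. The log2 changes ran from −0.84 to 0.58. By at least 1.25-fold, 28 chains were higher and 15 lower, with 8.76% and 9.50% of all units. Day 21 and day 7 libraries had separate ranges in 137 chains (50.2%, against 22.4% of all units), and 108 of these were higher at day 21. Without the chain on the unplaced contig, 114 were higher and 32 lower.

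**Figure D1:**
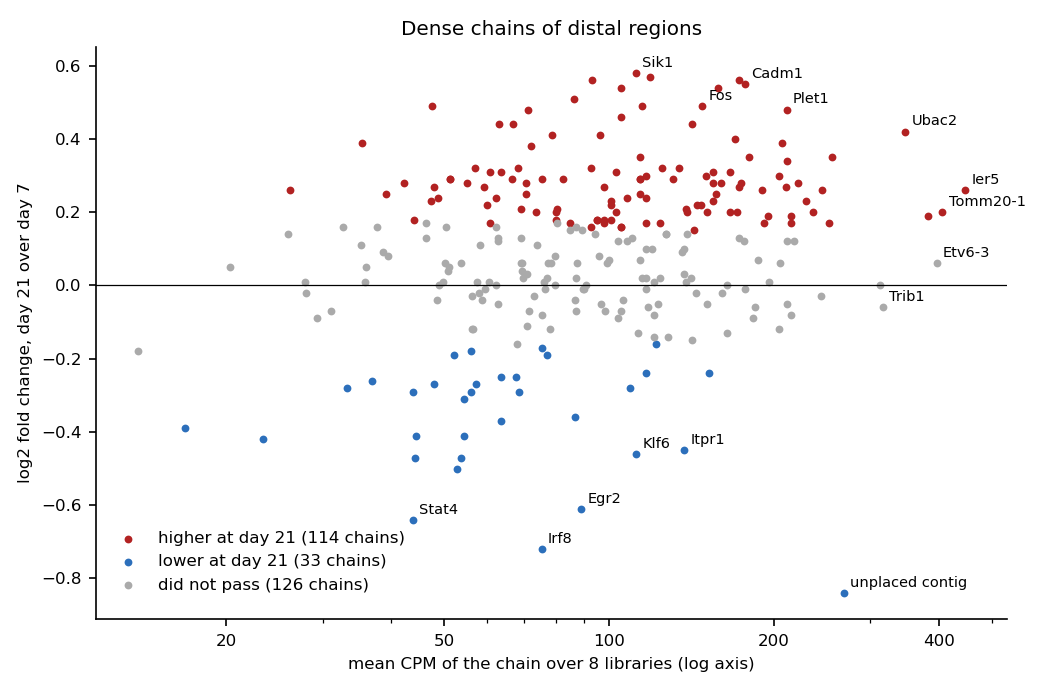
Each point is a dense chain, with its mean CPM over the 8 libraries on a log axis against its log2 fold change of day 21 over day 7. The 114 chains higher at day 21 are red, the 33 lower are blue and the 126 that did not pass are grey, and no chain lies above 0.58 or below −0.84.

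A dense chain sums more counts than a short one, and the share of chains called grew with the number of regions. Chains of 5 to 9 regions had a median of 34.9 CPM, and 26.7% were higher and 16.4% lower. With 2 to 4 regions the median was 8.49 CPM, and 15% were higher and 13.2% lower. Distal regions standing alone had 2.03 CPM, with 8.88% higher and 8.24% lower, while at gene ends the median was 12.0 CPM and the shares were 6.96% higher and 17.4% lower. The lower share did not grow in the same way, since it was 12.1% in dense chains and 16.4% in chains of 5 to 9 regions. On either side of the rule's limit, 41 of the 102 chains of 10 regions were higher and 11 lower (median 0.13), and 37 of the 141 chains of 9 regions were higher and 28 lower (median 0.05). Within the dense chains the split followed the level too. Of the 137 with the higher mean CPM, 74 were higher at day 21 and 7 lower, and of the other 136, 40 were higher and 26 lower. Chains with regions in a gene were higher in 80 of 194 cases and lower in 24, and chains on chromosomes outside genes in 34 and 8 of 78.

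The share of a library's counts that fell into dense chains was 3.10%, 3.07%, 3.27% and 3.07% in the day 21 libraries, against 2.90%, 2.80%, 2.93% and 2.93% in the day 7 libraries. All 4 day 21 values lay above all 4 day 7 values. Distal regions as a whole held 63.4% to 63.9% of a library's counts at day 21 and 60.6% to 62.1% at day 7, so their share was higher too. Relative to distal counts alone the dense chain share was 4.85%, 4.84%, 5.16% and 4.80% at day 21 and 4.67%, 4.61%, 4.77% and 4.77% at day 7, again without overlap. Replicate 3 was the highest of the day 21 libraries on both dense chain shares. Its median log2 ratio over dense chains to the day 7 mean was 0.19, against 0.07 to 0.11 in the other day 21 libraries and −0.04 to 0.03 in the day 7 libraries. Without it 84 chains were higher and 42 lower, with a median of 0.07.

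Counted one by one, 3282 of the 3316 regions passed the filter on low counts. Of these, 556 (16.9%) were higher at day 21 and 353 (10.8%) lower, against 9.50% and 9.86% of all 121865 regions tested. Without day 21 replicate 3, 381 regions of dense chains were higher and 355 lower, so the excess of gains rested largely on that library. The shares over all regions without it are not given here. Distal regions outside dense chains were higher in 9.75% and lower in 8.65%. Regions were also set side by side at like levels, where the difference between dense chains and other regions was not tested. At 16 CPM and over, 43.9% of 515 dense chain regions were higher and 7.18% lower, against 30.8% and 8.49% of 8397 other distal regions. At 8 to 16 CPM the shares were 23.7% and 10.6% in dense chains and 20% and 8.64% in other distal regions. Below 4 CPM the shares of gains lay close together, with 6.92% in dense chains against 6.39% elsewhere at 2 to 4 CPM and 2.56% against 3.61% at 1 to 2 CPM. Losses below 4 CPM were 11.1% against 9.36% and 12.0% against 8.02% in the same classes. Gains and losses also differed in level and size. Regions called higher had a median of 12.7 CPM and a median log2 change of 0.50, and 27 of 556 changed by 2-fold or more. Regions called lower had a median of 5.0 CPM and a median change of −0.83, and 134 of 353 changed by 2-fold or more. Regions called by 2-fold or more made up 4.91% of dense chain regions, 5.89% of other distal regions and 5.35% of all regions tested. Over all regions such calls went with level, at 9.96% at 1 to 2 CPM and 0.308% at 16 CPM and over. Whether gains and losses differ in size at like levels was not tested.

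**Figure D2:**
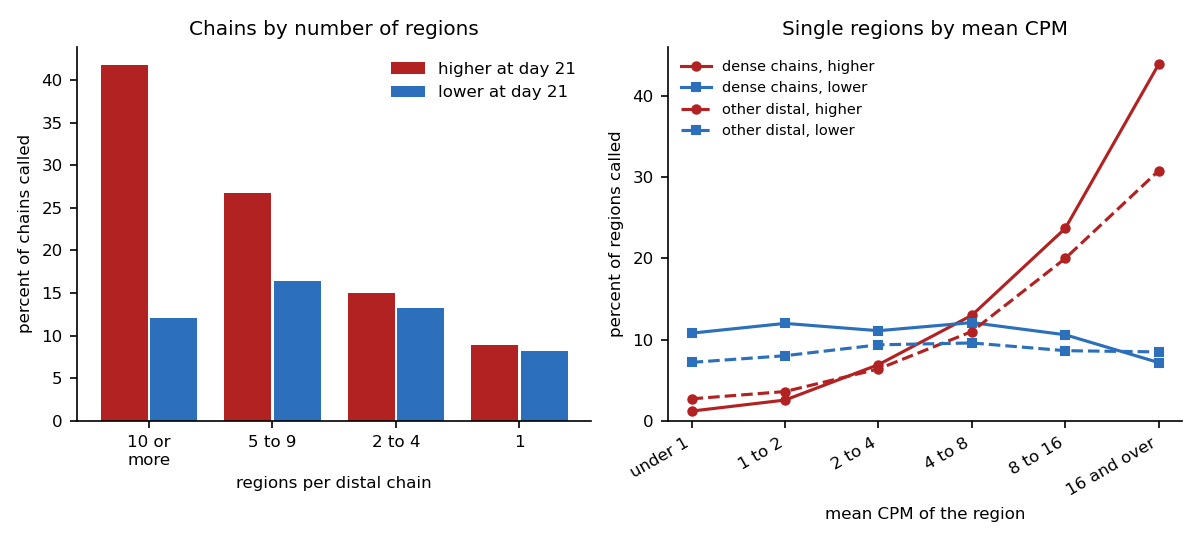
Left, the percent of distal chains called higher (red) and lower (blue) at day 21 by the number of regions in the chain, with dense chains at 41.8% and 12.1%. Right, the percent of single regions called in dense chains (solid lines) and in other distal regions (dashed lines) by mean CPM, where gains in dense chains reach 43.9% and those in other distal regions 30.8% at 16 CPM and over.

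Of the chains on chromosomes, the steepest loss lay beside Irf8, the transcription factor on which cDC1 development depends. It spanned 24.2 kb (positions here and below as in the deposited table, mm10; chr8:120701688-120725936), held 10 regions and ended 10.4 kb from the nearer end of Irf8. It summed to 59.5, 56.7, 54.6 and 57.4 CPM in the day 21 libraries and to 94.7, 90.4, 96.5 and 92.8 CPM in the day 7 libraries. The days were far apart, and the libraries of each day lay close together. The log2 change was −0.72 ± 0.06 (edgeR adjusted p = 1.04e-14). 6 of the 10 regions were lower and 4 did not pass. The strongest (chr8:120701688-120702561) had 17.2 ± 1.91 CPM at day 21 and 25.1 ± 2.56 CPM at day 7 (SD, n = 4 each; −0.53 ± 0.10). The loss with the smallest p was steeper, with 2.06 ± 1.28 CPM at day 21 and 7.79 ± 0.570 CPM at day 7 (chr8:120707652-120708072, −1.99 ± 0.23). At the ends of Irf8 itself the summed level was 38.2 CPM at day 21 and 54.8 CPM at day 7.

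Egr2 and Klf6, both zinc finger transcription factors induced by signals, also stood beside chains that fell. The Egr2 chain (chr10:67477145-67505772, 11 regions, 28.7 kb from Egr2) summed to 71.8, 63.5, 77.0 and 69.3 CPM at day 21 and to 111, 97.3, 112 and 109 CPM at day 7. No library overlapped, and the change was −0.61 ± 0.06 (edgeR adjusted p = 6.78e-12). 9 of its 11 regions were lower. The smallest p belonged to a loss of −1.0 ± 0.12 at chr10:67484080-67484746 (7.99 ± 0.844 CPM at day 21 and 16.1 ± 0.264 CPM at day 7). The Klf6 chain (chr13:5750438-5779792, 15 regions, 81.7 kb from Klf6) summed to 104, 90.8, 93.9 and 89.5 CPM at day 21 and to 130, 127, 138 and 125 CPM at day 7, again without overlap. Its change was −0.46 ± 0.06 (edgeR adjusted p = 4.93e-09). Here 10 regions were lower and 1 higher. The ends of Klf6 itself did not fall with the chain. They summed to 146 CPM at day 21 and 136 CPM at day 7, and 1 of their 3 regions was called higher. The region of the steepest loss had 1.06 ± 0.433 CPM at day 21 and 4.74 ± 1.31 CPM at day 7 (chr13:5759549-5759853), and the gain lay at the end of the chain that faces Klf6 (chr13:5779361-5779792, 20.5 ± 2.56 CPM at day 21 and 16.5 ± 2.65 CPM at day 7).

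Stat4, which encodes the transcription factor that answers to interleukin 12, held a chain of 10 regions inside the gene (chr1:52004152-52022817). Its summed level was 37.6, 30.1, 34.3 and 34.5 CPM at day 21, against 48.6, 55.6, 57.9 and 51.4 CPM at day 7. Every day 21 library was below every day 7 library, and the change was −0.64 ± 0.07 (edgeR adjusted p = 4.17e-10). The loss was uneven. The strongest region, at the downstream end of the chain, had 14.6 ± 1.44 CPM at day 21 and 15.8 ± 1.10 CPM at day 7 and did not pass (edgeR adjusted p = 0.557), while the region over the start printed above changed by −1.16 ± 0.16. Itpr1, a calcium channel of the endoplasmic reticulum, names a chain of 14 regions of which 2 lie in the gene (chr6:108548471-108571598). The next gene on its other side, at 89.0 kb, is Bhlhe40, a transcription factor of stress and activation. The chain summed to 122, 107, 121 and 114 CPM at day 21 and to 160, 156, 166 and 152 CPM at day 7 without overlap (−0.45 ± 0.06, edgeR adjusted p = 2.73e-09), and 7 regions were lower. All 14 log2 changes were below 0, the highest at −0.06.

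**Figure D3:**
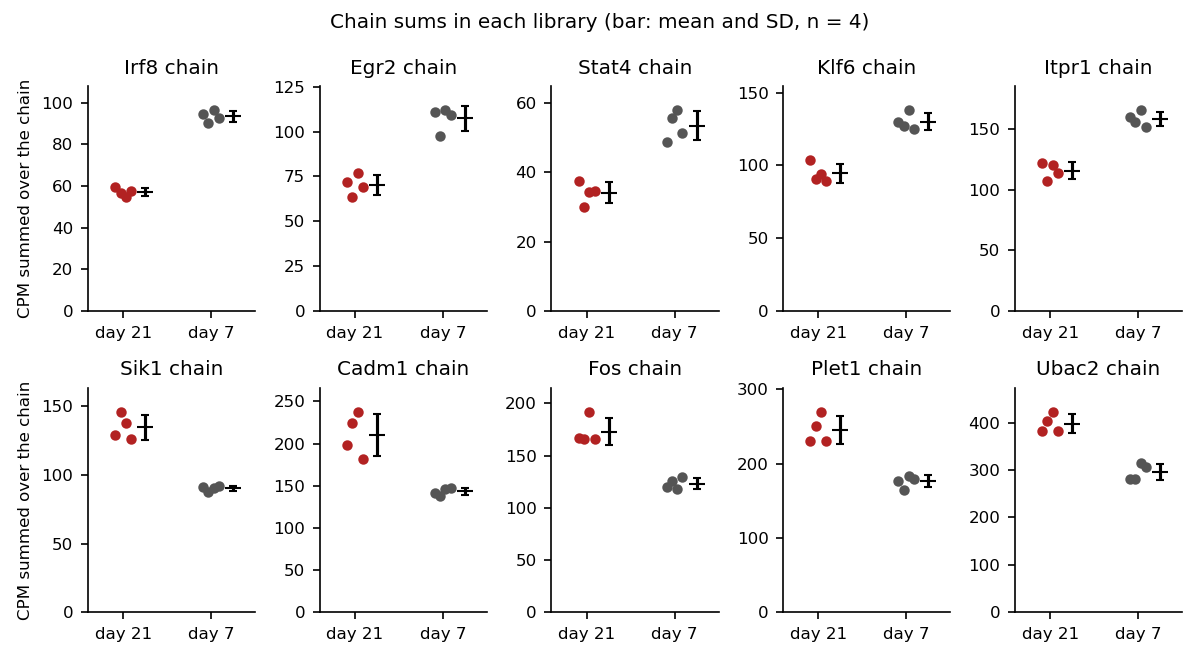
The summed CPM of 10 dense chains in each of the 4 day 21 libraries (red) and the 4 day 7 libraries (grey), with the mean and SD of each day beside the points. In the upper row (Irf8, Egr2, Stat4, Klf6, Itpr1) all day 21 points lie below the day 7 points, and in the lower row (Sik1, Cadm1, Fos, Plet1, Ubac2) all lie above them.

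Further losses of small p lay in Abtb2 (−0.50 ± 0.07), near 1700001O22Rik (−0.47 ± 0.07), at Tnfsf8, the ligand of CD30 (−0.41 ± 0.07), and around Chrna1, a subunit of the muscle acetylcholine receptor (−0.36 ± 0.06). The Tnfsf8 chain averaged 46.7 ± 1.60 CPM at day 21 and 62.0 ± 3.88 CPM at day 7, and a gene-end region within its span was lower as well. The steepest loss of all, −0.84 ± 0.08 (edgeR adjusted p = 1.16e-12), belonged to the chain on the unplaced contig, where all 23 regions were lower. It summed to 254, 178, 167 and 171 CPM at day 21 and to 360, 443, 311 and 264 CPM at day 7. Both days were widely spread, and day 21 replicate 1 came within 10 CPM of the lowest day 7 library. Of the T and NK cell markers, 15 had a lower mean at day 21 and 4 a higher one, and their sums overlapped between the days. Stat4 and Egr2 are also used in those cells. Markers of plasmacytoid dendritic cells summed to 77.8 to 79.5 CPM at day 21 and to 82.0 to 91.5 CPM at day 7, without overlap. Of the 4 with a region, 2 had a lower mean at day 21 and 2 a higher one. The part of other cells in these losses was not tested.

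The largest gain was beside Sik1, a salt-inducible kinase that restrains CREB-driven transcription. The chain (chr17:31814768-31842604, 12 regions) ended 1.64 kb from the gene. It summed to 129, 146, 138 and 126 CPM at day 21 and to 91.0, 87.6, 90.4 and 91.6 CPM at day 7, with all 4 late libraries above all early ones (0.58 ± 0.06, edgeR adjusted p = 4.03e-12). Of its 5 regions called higher, 4 sat at the end of the chain that faces Sik1. The outermost region there had 27.5 ± 3.01 CPM at day 21 and 11.2 ± 1.60 CPM at day 7 (chr17:31841463-31842604, 1.30 ± 0.11), and the strongest had 50.9 ± 3.81 and 35.5 ± 1.84 CPM in day 21 and day 7 libraries. In the middle of the same chain 3 weak regions fell, among them one with 0.659 ± 0.376 CPM at day 21 and 2.30 ± 1.06 CPM at day 7 (−1.81 ± 0.39).

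Cadm1, an adhesion molecule that marks cDC1s, held a chain of 16 regions (chr9:47703422-47744649). The chain summed to 198, 224, 238 and 182 CPM at day 21 and to 142, 138, 146 and 148 CPM at day 7. Day 21 libraries were all higher and more spread (0.55 ± 0.06, edgeR adjusted p = 2.04e-11). 9 regions were higher, and the region that holds 45.9% of the counts had 94.1 ± 11.2 CPM at day 21 and 68.2 ± 3.27 CPM at day 7. The ends of Cadm1 summed to 64.2 CPM at day 21 and 62.0 CPM at day 7. Beside Fos, the AP-1 subunit, a chain of 14 regions (chr12:85416259-85447544, 26.3 kb from Fos and 41.5 kb from Tmed10) summed to 167, 166, 192 and 166 CPM at day 21 and to 120, 126, 118 and 129 CPM at day 7. The days did not overlap (0.49 ± 0.06, edgeR adjusted p = 4.11e-10), and replicate 3 stood above the other 3 late libraries. 6 regions were higher, up to 1.04 ± 0.16 in a region of 10.4 ± 1.20 CPM at day 21 and 5.19 ± 1.39 CPM at day 7. A chain inside Tmed10, 109 kb from Fos, was higher too (0.41 ± 0.06).

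The Ubac2 chain, whose 21 regions surround Gpr183, a receptor for oxysterols that guides cell migration, was one of the 10 with most regions and of the 10 with the highest CPM (chr14:121919743-121962900, 43.2 kb). It summed to 382, 404, 423 and 382 CPM at day 21 and to 281, 282, 314 and 307 CPM at day 7 without overlap (0.42 ± 0.05, edgeR adjusted p = 3.59e-10). 9 regions were higher, and the strongest had 82.3 ± 5.95 CPM at day 21 and 55.3 ± 6.04 CPM at day 7. The Plet1 chain (chr9:50459530-50503154) had 11 of 19 regions higher, the most of all 273 chains, and summed to 231, 250, 270 and 231 CPM at day 21 against 177, 165, 183 and 180 CPM at day 7 (0.48 ± 0.05). The gene-end region in its span was higher too, with 9.71 CPM at day 21 and 5.04 CPM at day 7. Near Tnfaip3, which encodes A20, a brake on NF-kB signalling, a chain of 13 regions 78.8 kb from the gene averaged 134 ± 10.8 CPM at day 21 and 95.7 ± 5.12 CPM at day 7 (0.49 ± 0.06, edgeR adjusted p = 2.25e-09).

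The other gains of smallest p were at Elovl5, an elongase of polyunsaturated fatty acids (0.56 ± 0.06), at Lrrc8c, a subunit of volume-regulated anion channels (0.56 ± 0.06), at Gng12, a G protein subunit (0.54 ± 0.06), at Plac8 (0.54 ± 0.06) and near Gm39147, 64.4 kb from the growth factor receptor gene Fgfr1 (0.57 ± 0.06). The Elovl5 and Lrrc8c chains had 7 regions higher each, of 10 and 11. The Plac8 chain averaged 124 ± 6.22 CPM at day 21 and 85.7 ± 4.84 CPM at day 7, and a single region held 39.7% of its counts.

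Not every chain moved as a block. Regions of both directions were called in 80 chains, higher ones alone in 101, lower ones alone in 64, and 28 chains had no region called. In 47 of the 80 mixed chains the sum did not pass. Of the 114 higher chains, 30 held a region called lower, and of the 33 lower chains 3 held one called higher. Among the 126 chains whose sum did not pass, 99 held a called region. Over all dense chains 16.9% of the regions tested were higher and 10.8% lower, and each chain holds 10 or more regions. The median distance between the lowest and highest log2 change of a chain's regions was 1.25. The SD of regions around their chain's mean was 0.43, and that of the chain means was 0.28. These spreads include the error of each region's estimate, which is larger in weak regions. Neighbouring regions of a chain had a Pearson r of 0.40 in their log2 changes over 3009 pairs, and r was 0.36 over 45419 pairs in other chains. These are descriptions across regions that share libraries and scaling.

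Gains by rank within a chain went with level, as they did in distal regions outside dense chains, where 30.8% were higher at 16 CPM and over, 11.0% at 4 to 8 CPM and 6.39% at 2 to 4 CPM. The strongest region of each chain (median 25.2 CPM) was higher at day 21 in 33.3% of 273 chains and lower in 5.49%, with a median change of 0.16. The next 2 regions (median 13.4 CPM) were higher in 31.0% and lower in 9.89%, also with a median of 0.16. The rest (median 4.05 CPM) were higher in 12.0% and lower in 11.5%, with a median of 0.05. Leaving the strongest region out of each sum gave 101 higher and 37 lower chains.

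**Figure D4:**
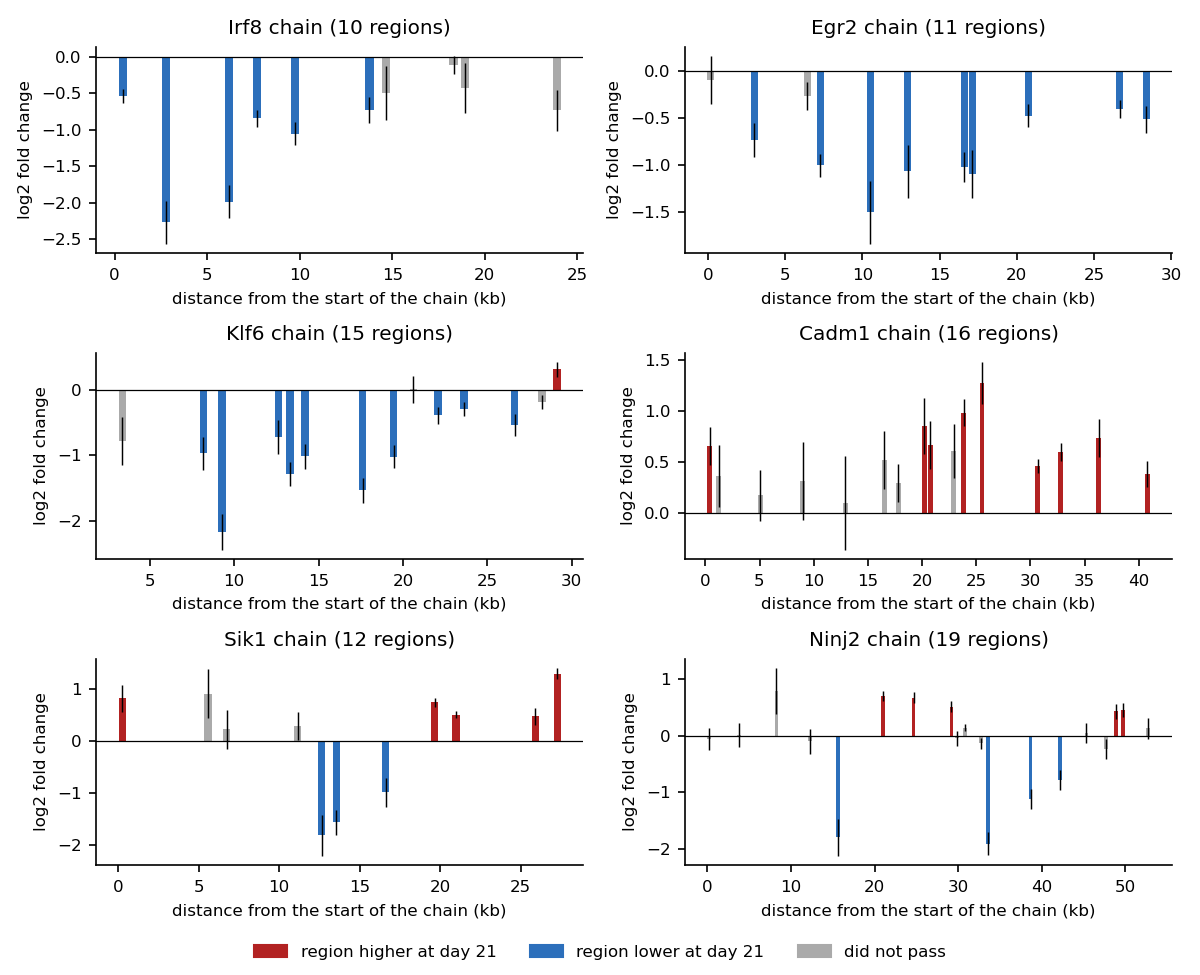
The log2 fold change of each tested region (bars, with standard errors) along 6 dense chains, by distance from the chain's first region in kb. Bars are red where the region was higher at day 21, blue where it was lower and grey where it did not pass, so that Irf8 and Egr2 show losses alone, Cadm1 gains alone, and Klf6, Sik1 and Ninj2 both.

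In 7 chains at least 3 regions were called in each direction, among them Sik1 and Flt3. In the Rassf3 chain, 72.1 kb from the innate kinase gene Tbk1, 3 regions were higher and 6 lower, and the sum was 121 ± 5.48 CPM at day 21 and 125 ± 7.12 CPM at day 7 (−0.05 ± 0.06, edgeR adjusted p = 0.624). Its first region had 5.54 ± 1.46 CPM at day 21 and 12.4 ± 0.765 CPM at day 7, a change of −1.17 ± 0.15. The chain around Mcl1, the anti-apoptotic member of the BCL2 family, had 4 regions higher and 3 lower. Its sum was 312 CPM at day 21 and 311 CPM at day 7 (edgeR adjusted p = 0.961). The strongest Mcl1 region fell (64.0 ± 4.13 CPM at day 21 and 77.9 ± 2.48 CPM at day 7, −0.28 ± 0.06), and another rose (20 ± 3.12 CPM at day 21 and 11.7 ± 0.609 CPM at day 7, 0.78 ± 0.11). The third chain of Etv6, a repressor of the ETS family, had 3 higher and 4 lower regions and a sum of 404 ± 23.9 CPM at day 21 and 388 ± 13.3 CPM at day 7 (0.06 ± 0.05, edgeR adjusted p = 0.425).

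Ninj2, an adhesion molecule, names a chain with 5 regions higher and 4 lower of 19 (chr6:120052524-120105372). The sum passed, with 266 ± 25.9 CPM at day 21 and 237 ± 13.9 CPM at day 7 (0.17 ± 0.05, edgeR adjusted p = 0.0181). The chain no longer passed without day 21 replicate 3 (edgeR adjusted p = 0.235) or 2 (0.0511), nor without day 7 replicate 1 (0.0918) or 2 (0.0573), and its libraries overlapped between the days. Its regions moved far apart, from 0.70 ± 0.09 in a region of 33.8 ± 3.79 CPM at day 21 and 20.7 ± 2.34 CPM at day 7 to −1.91 ± 0.21 in one of 2.43 ± 0.869 and 9.12 ± 2.89 CPM at day 21 and day 7. Beside Zc3h12c, an RNA-degrading enzyme of the Regnase family, 4 regions were higher and 3 lower. That chain averaged 148 ± 11.4 CPM at day 21 and 128 ± 4.94 CPM at day 7 (0.21 ± 0.06, edgeR adjusted p = 0.00445). Without its strongest region, which holds 43.0% of the counts, the change was 0.10 ± 0.06 (edgeR adjusted p = 0.252).

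The lists of genes that follow were chosen with earlier results known, and a chain counts for a list when a list gene lies in it or is the next protein-coding gene on either side. All chains counted here are dense, so each list is to be read against the dense chains as a whole, of which 41.8% were higher and 12.1% lower with a median of 0.12, besides 11.1%, 12.3% and −0.01 over all units. No list was tested against the other dense chains. For cDC1 identity, 11 chains stood at 10 of the 27 list genes found in the gene table. Of these, 4 were higher, 2 lower and 5 did not pass, with a median of 0.10, near the 41.8% and 0.12 of all dense chains. Besides the Irf8 loss and the Cadm1 gain, accessibility rose in Rab7b, a small GTPase of endosomes (0.32 ± 0.07), in the chain between Slc38a9 and Plpp1, a lipid phosphatase (0.28 ± 0.05), and in the Lpp chain, 605 kb from Bcl6, a transcriptional repressor (0.19 ± 0.05). It fell in Cbfa2t3 (−0.24 ± 0.05, edgeR adjusted p = 3.86e-04). Chains in Zbtb46, a factor shared by conventional dendritic cells (−0.09 ± 0.05), in Flt3, their growth factor receptor (0.10 ± 0.06), and near Id2, a regulator of lineage choice (0.00 ± 0.07), did not pass. Nor did the chain that carries the name Bcl6 (0.15 ± 0.06, edgeR adjusted p = 0.0668).

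Factors of AP-1, stress and the immediate-early response had 11 chains, of which 6 were higher, 3 lower and 2 did not pass (median 0.17), beside 41.8% higher, 12.1% lower and a median of 0.12 in all dense chains. The losses were those of Egr2, Klf6 and Itpr1, next to Bhlhe40. Besides both Fos chains, the chain near Ier5, an immediate-early gene, was higher and had the highest level of all 273. It summed to 465, 514, 511 and 459 CPM at day 21 and to 394, 402, 412 and 418 CPM at day 7 without overlap (0.26 ± 0.05, edgeR adjusted p = 1.68e-05). The chain near Zfp36l2, which promotes mRNA decay, rose by 0.34 ± 0.05. The chain next to Nfe2l2, the oxidative stress factor NRF2, was higher (0.21 ± 0.06). For Hif1a, the hypoxia factor, the chains counted lie inside Prkch. The one 283 kb from Hif1a was higher (0.17 ± 0.05), while the one at 196 kb was not (−0.05 ± 0.06).

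Maturation and migration genes had 7 chains, with 2 higher, 2 lower and 3 not passing (median −0.03), with 41.8%, 12.1% and 0.12 in all dense chains. Tnfaip3 and the chain between Cd83, a maturation marker 724 kb away, and Jarid2 were higher (0.49 ± 0.06 and 0.20 ± 0.06). The Jarid2 chain did not pass without day 21 replicate 3 (edgeR adjusted p = 0.0874) and without day 7 replicate 2 (0.0766). Stat4 was lower, as was the chain between Ric1 and Pdcd1lg2, the gene of PD-L2, 11.7 kb away. That chain averaged 48.5 ± 0.440 CPM at day 21 and 60.2 ± 3.72 CPM at day 7 (−0.31 ± 0.07, edgeR adjusted p = 2.36e-04). Chains at Nfkb1 (0.14 ± 0.06) and Traf1 (−0.06 ± 0.05) and the Rnf216 chain next to Fscn1 (−0.03 ± 0.06) did not pass. Antigen presentation had 3 chains, of which 0 passed in edgeR, 0 had an unadjusted p under 0.05 (the lowest was 0.194) and the median was 0.06. The Ciita chain, at the master regulator of MHC class II, had 98.4 ± 4.96 CPM at day 21 and 93.2 ± 5.66 CPM at day 7 (0.08 ± 0.06, edgeR adjusted p = 0.375), though the gene-end region in its span was higher. The other 2, in Rin3 and next to the lysosomal protease gene Lgmn, changed by 0.06 ± 0.07 and 0.00 ± 0.06.

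Cytokine and chemokine signalling had 13 chains, with 7 higher, 4 lower and 2 not passing (median 0.18), against 41.8%, 12.1% and 0.12 in dense chains overall. The chain in Map4k4 next to Il1r2, the decoy receptor of interleukin 1 at 158 kb, had 72.8 ± 6.6 CPM at day 21 and 53.4 ± 5.12 CPM at day 7 (0.44 ± 0.07, edgeR adjusted p = 9.14e-07). Chains near Socs3, an inhibitor of cytokine receptors (0.25 ± 0.06), and between the receptor genes Ifnar1 and Il10rb (0.20 ± 0.05) were higher, as was that near the chemokine receptor gene Cxcr4 (0.18 ± 0.06). The chains next to Il10ra and Il10 also rose (0.18 ± 0.06 and 0.18 ± 0.07), while a further chain near Il10ra changed by 0.02 ± 0.05. In Smad3, a transducer of TGF-beta, the chain summed to 152, 162, 214 and 152 CPM at day 21 and to 141, 137, 142 and 142 CPM at day 7. Replicate 3 stood far above the other late libraries. The change was 0.28 ± 0.06 (edgeR adjusted p = 7.63e-04), and without that library it was 0.13 (edgeR adjusted p = 0.0611). In DESeq2 the adjusted p was 0.122 with all libraries. The chain in Ctif next to Smad7, the inhibitory Smad, was lower, at 38.1 ± 3.68 CPM at day 21 and 50.9 ± 2.35 CPM at day 7 (−0.41 ± 0.07). So were chains next to Tnfrsf1b, a TNF receptor (−0.25 ± 0.07), Jak2, a cytokine receptor kinase (−0.26 ± 0.08), and Cish, a cytokine-induced inhibitor (−0.17 ± 0.06). A further chain next to Smad7, the Dym chain, did not pass (0.01 ± 0.09).

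Transcription factors of the myeloid and lymphoid lineages had 13 chains, of which 3 were higher, 2 lower and 8 did not pass (median 0.05), where all dense chains stood at 41.8%, 12.1% and 0.12. Fli1, of the ETS family, averaged 172 ± 11.4 CPM at day 21 and 139 ± 3.47 CPM at day 7 (0.31 ± 0.05, edgeR adjusted p = 1.03e-05). Nfatc2, a factor switched on by calcium, rose by 0.35 ± 0.06, and Rara, the retinoic acid receptor alpha, by 0.15 ± 0.06. Of the lower chains, the second Etv6 chain changed by −0.24 ± 0.06. Chains in Spi1, which encodes PU.1 (0.02 ± 0.06), and Ikzf1, which encodes Ikaros (0.06 ± 0.06), did not pass. Phagocytosis, endocytosis and the cytoskeleton had 9 chains, of which 4 were higher and 5 did not pass (median 0.14), near the 41.8% higher and 0.12 of all dense chains. The higher ones were in Dock10 (0.26 ± 0.05), Ptprc, which encodes CD45 (0.25 ± 0.05), Dock2 (0.23 ± 0.06) and Prkcb, a protein kinase C (0.24 ± 0.06). The chain in Cybb, the catalytic subunit of the phagocyte oxidase, changed by 0.06 ± 0.06.

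Of 3 innate sensing chains, that in Aim2, a sensor of cytosolic DNA, was higher (0.20 ± 0.06, edgeR adjusted p = 0.0102), and those of Irak2 (−0.12 ± 0.05) and Tbk1 did not pass. Aim2 did not pass without day 21 replicate 3 (edgeR adjusted p = 0.0762) and without its strongest region (0.0866), and Irak2 passed as lower without that replicate (−0.20, edgeR adjusted p = 0.00181). The Irak2 chain also passed as lower in limma-voom (adjusted p = 0.0093). In edgeR it did so with the trended scaling (adjusted p = 0.0114), with the replicate number as a block (0.0352) and without its strongest region (0.0334). Mitochondrial metabolism and signalling had 1 chain, in Fyb and 124 kb from Rictor, a subunit of mTORC2. It had 48.9 ± 3.77 CPM at day 21 and 55.5 ± 2.38 CPM at day 7 (−0.19 ± 0.07, edgeR adjusted p = 0.0391), and the days overlapped. It did not pass when any of 5 libraries was left out (adjusted p up to 0.191, without day 21 replicate 4). Marker lists of other cell types had 4 chains. The Frmd4b chain, 342 kb from the melanocyte factor gene Mitf, was higher (0.17 ± 0.06, edgeR adjusted p = 0.0254). It lost its call under 6 alternatives, up to an adjusted p of 0.649 without its strongest region and of 0.230 without day 21 replicate 3. Chains next to Arg1 (0.17 ± 0.07, which passed under 5 of 16 alternatives), Adgre1, which encodes F4/80 (0.07 ± 0.06), and Gata3, 3130 kb away (0.10 ± 0.06), did not pass. B cell, neutrophil, plasmacytoid and stromal markers had no dense chain in or next to them.

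The longest chain held 27 regions over 60.0 kb and lay 73.0 kb from Tomm20, a receptor of the mitochondrial import machinery, and 204 kb from the cofactor gene Irf2bp2 (chr8:126797652-126857630). It summed to 409, 420, 512 and 394 CPM at day 21 and to 380, 354, 392 and 385 CPM at day 7. The days did not overlap, but replicate 3 was far above the other late libraries, and the change of 0.20 ± 0.05 (edgeR adjusted p = 0.00345) was 0.10 without it (edgeR adjusted p = 0.12). In DESeq2 the adjusted p was 0.141 with all libraries. Of its regions, 7 were higher and 1 lower. The strongest had 52.4 ± 4.18 CPM at day 21 and 51.5 ± 3.11 CPM at day 7. The Trib1 chain, with 23 regions 124 kb from the pseudokinase gene Trib1, had 309 ± 14.3 CPM at day 21 and 323 ± 9.95 CPM at day 7 (−0.06 ± 0.05, edgeR adjusted p = 0.366). 5 of its regions were lower. Long chains in Notch2, a receptor that shapes dendritic cell subsets (0.29 ± 0.06), Ptprc and Dock10 were higher, while those of Plekho1 (−0.05 ± 0.05) and Lbh (−0.01 ± 0.06) did not pass. Among the 10 chains of highest CPM, Plekho2 (0.19 ± 0.05) and Sgms1, a sphingomyelin synthase (0.35 ± 0.05), were also higher.

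Chains of the same gene did not always move together. All 3 chains in Asap1, an activator of Arf GTPase hydrolysis, were higher (0.21 ± 0.06, 0.41 ± 0.06 and 0.48 ± 0.06), with 74.1, 110 and 82.7 CPM at day 21 and 64.2, 82.8 and 59.4 CPM at day 7. Of the 3 chains in Etv6, only the second passed in edgeR (−0.24 ± 0.06), beside −0.08 ± 0.05 and 0.06 ± 0.05. The difference between chains of a gene was not tested.

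Gene-end regions, which the rule left out, give a separate set of values from the same libraries. In 33 chains 41 such regions lay inside the span, of which 5 rose and 3 fell, beside 6.63% higher and 16.6% lower among all 17636 gene-end regions tested. The 11 higher chains among them had a median log2 ratio of 0.18 at these ends and the 5 lower chains one of −0.31, and Pearson r between chain and ends was 0.52 over the 33 chains. Values at the ends of the naming gene, inside or outside the span, were also set beside the chains. Among 105 higher chains whose gene had a region at an end, 26 had one called higher and 18 one called lower, and the median ratio was 0.01. Among 27 lower chains the counts were 2 and 12 with a median of −0.21, and among 110 that did not pass they were 16 and 20 with a median of −0.03. Such counts are per chain, and its naming gene can have several end regions. The ends of a gene that names more than 1 chain enter once for each of its chains. The shares per region given above are therefore not their background, and the share over all genes is not given here. Over all 242 chains r was 0.27, and the difference from the 33 chains above was not tested. These correlations are across chains that share libraries and scaling.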

How the data were processed

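ATAC-seq counts in 8 libraries of sorted intratumoral cDC1s were used, 4 from day 21 and 4 from day 7. The deposited table holds raw counts per region over a single set of regions shared by all libraries, and the authors used MACS2 2.1.0.20150603, cutadapt 1.9, bedtools, SAMtools and Picard with mm10, per the submitters' processing notes. The aligner, the rule that merged peaks, any shift of insertion sites and the coordinate base are not given in the sources used here. Regions were 1 to 3427 bp wide (median 364), so counts of a region also follow its width.

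Gene ends came from 21887 protein-coding genes of the RefSeq table for GRCm38.p6. Counts were summed per chain and tested together with all other distal chains and gene-end regions, and single regions in a separate fit, by edgeR 4.0.16 in R 4.3.3 (quasi-likelihood test, TMM scaling, filterByExpr, Benjamini-Hochberg adjustment over all features, adjusted p under 0.05). Both fits were tested on simulated data first. CPM used TMM-scaled totals. Depth ran from 9440223 to 27737040 counts, and weak regions are the less precise. Alternatives were DESeq2 1.42.0, limma-voom 3.58.1, other scalings and filters, thinning, other chain rules and leaving out each library. Chains named were the 10 with most regions, the 10 with the highest CPM, the 10 higher and the 10 lower of smallest p without overlap, those at list genes and 5 with calls in both directions. Other chains at list genes, of the same gene or under a printed promoter were added after their values were seen. Of 459 list genes, 455 were found. A neighbouring gene of 1 list is not reported here. The chains, lists and tests were chosen with earlier results of these data known. The markers of neutrophils (11.8 to 13.8 CPM at day 21 and 11.7 to 14.2 CPM at day 7), plasmacytoid dendritic cells (77.8 to 79.5 and 82.0 to 91.5 CPM at day 21 and day 7), B cells (59.5 to 62.9 and 51.5 to 60.7 CPM), melanoma cells (171 to 184 and 175 to 191 CPM) and stroma (47.0 to 56.4 and 52.1 to 57.2 CPM) were summed in the same way as those in the results.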

Additional observations from a re-analysis of the deposited data

Results flagged for a closer look

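In 118 groups of 4 libraries, made of 59 chains and both days, a single library stood far from the other 3 in 8. The gap of that library to its nearest neighbour was a larger part of the group's whole range than the 95% critical value of Dixon's test, which chance passes in about 1 in 20 groups. Day 21 replicate 3 was the high one in 3 of them. It had 192 CPM in the Fos chain (166 to 167 CPM in the other day 21 libraries), 214 CPM in the Smad3 chain (152 to 162 CPM) and 221 CPM in the Irak2 chain (184 to 189 CPM). Day 21 replicate 1 was high in the chain on the unplaced contig, at 254 CPM (167 to 178 CPM), and in the second Etv6 chain, at 112 CPM (all others at 106 CPM). Day 21 replicate 2 was low in the Ctif chain, at 32.5 CPM (39.7 to 40.2 CPM). Among day 7 libraries, replicate 4 was high in the Notch2 chain, at 111 CPM (99.3 to 101 CPM), and replicate 2 was low in the Prkcb chain, at 85.5 CPM (all others at 103 CPM). What sets these libraries apart was not tested.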

How the results depend on the processing

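How many chains there are depends on the rule. A gap of 2500 bases left 2 chains, with 1 higher, 0 lower (edgeR) and a median of 0.03, and 20 regions, with 4 higher and 2 lower. A gap of 10000 bases gave 1635 chains (538 higher, 253 lower, median 0.06) and 24549 regions (3081 higher, 2440 lower). Chains of 8 or more regions numbered 651 (233 higher, 91 lower), with 989 regions higher and 638 lower. Chains of 15 or more numbered 43 (19 higher, 5 lower), with 141 regions higher and 102 lower. The cause of these shifts was not tested. Leaving out each library in turn gave 84 to 113 chains higher, 28 to 42 lower, a median of 0.07 to 0.13, 381 to 538 regions higher and 293 to 355 lower. The trended scaling gave 108 higher and 44 lower (median 0.09), and DESeq2 111 and 33.

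No pairing by replicate number was visible, since deviations of libraries with the same number correlated at 0.01 and those of other numbers at −0.02 to 0.02. The labels do not say whether libraries are paired, and these correlations cannot exclude it. With the number as a block, 123 chains were higher and 40 lower (median 0.12), and 545 regions were higher and 344 lower. Over 59 named chains and 16 alternatives, 909 of 944 values kept their direction and side of the threshold, 25 lost their call, 10 gained one and 0 turned round. These changes touched 10 chains. Depth limits the weak regions most, and the shallowest library was a day 7 library.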
